A study of Mus musculus with 23 samples.

Results

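The left ventricles of 60-day-old male mice lacking Efnb1 in cardiomyocytes were compared with those of wild-type males of the same age. These were 6 arrays labelled Efnb1cKO_P60 and 5 labelled WT_P60, or 11 of the 23 arrays of the series, with 1 mouse per array. All 4 groups of the series share a mixed S129/S4 and C57BL/6 background, and the other 12 arrays hold the same genotypes 20 days after birth. The knockout is described as restricted to cardiomyocytes, and the Cre line that drives it is not given in the sources used here. The members were taken from the sample titles alone, all 35719 probes that passed the signal filter were compared, and genes carry the names given by the array files. Members of the alpha-defensin family and Myh7 enter the totals and are not described further.

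Ephrin-B1 is a transmembrane protein that binds Eph receptor tyrosine kinases on neighbouring cells and can itself signal into the cell that carries it. In the heart it is found on the lateral membrane of cardiomyocytes, the long side of the cell that faces other cells outside the intercalated disc. That membrane carries the dystrophin complex and the costameres, which tie the sarcomeres to the basement membrane, and it folds inwards as the T-tubules, where calcium channels face the sarcoplasmic reticulum.

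Efnb1 itself was measured by 1 probe (A_51_P388478). Its log2 scaled signal was 11.37, 11.42, 11.43, 11.43 and 11.18 on the 5 WT arrays and 10.79 to 10.94 (median 10.91) on the 6 knockout arrays, so the groups did not overlap. Knockout arrays averaged 10.89 ± 0.05 (SD, n = 6) and WT arrays 11.37 ± 0.11 (SD, n = 5; every value after ± is an SD over these arrays), a difference of -0.48 that leaves 71.8% of the WT signal. The exact two-sided permutation p was 0.00216, the smallest that the 462 ways of placing the arrays can give, while the limma fit over all probes gave an adjusted p of 0.065. Whole tissue was measured, so the share of this signal that comes from other cell types is not known, and fewer cells of a type cannot be told apart from less RNA per cell in any value given here. All 8 cardiomyocyte markers, among them Myh6, Actc1 and Ryr2, were well above background on all 11 arrays, and their summed signal differed by 0.00 on the log2 scale (exact permutation p = 0.946, 0.946 after adjustment over the 14 marker lists). Correlations between arrays of 1 group ran from 0.9892 to 0.9956, and no spot was saturated.

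At P60, 214 of 35719 probes differed between the genotypes at a Benjamini-Hochberg adjusted p below 0.05 in limma, which is 0.599% of those tested. Of these, 145 were higher in the knockout (0.406%) and 69 were lower (0.193%). The defensins account for 14 of the higher probes and Myh7 for 1. The remaining 199 probes, 130 higher and 69 lower, named 136 genes, of which 87 rose and 49 fell, and 41 of them belonged to RIKEN, clone or window transcripts. The ranges of the 2 groups did not overlap for 165 of the 199, against 2% of all tested probes. Most differences were small: the median size was 0.48 on the log2 scale, and 13 probes that were above background in both groups, on at least 1 array of each, exceeded 2-fold, 8 up and 5 down. A further 13 exceeded 2-fold in the fit with a group below background on all its arrays, and for 3 of these the bound described below for Dgki also exceeds 2-fold. Sizes at low signal differed between settings: with normexp, which corrects the background in another way and also adds an offset of 50 to every signal (the effects of the 2 were not separated), 34 of 60 genes followed changed their difference by more than 1.5 times, and those values are given below for most of them as the normexp values. With the authors' own deposited values 21 of the 60 did. The 3 slides each held both genotypes, and 197 of the 199 differences had the same sign within all 3. The third slide holds 1 WT array of this age. The 199 were called by differences over these same arrays, so the counts on ranges and slides are descriptions and not tests.

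**Figure D1:**
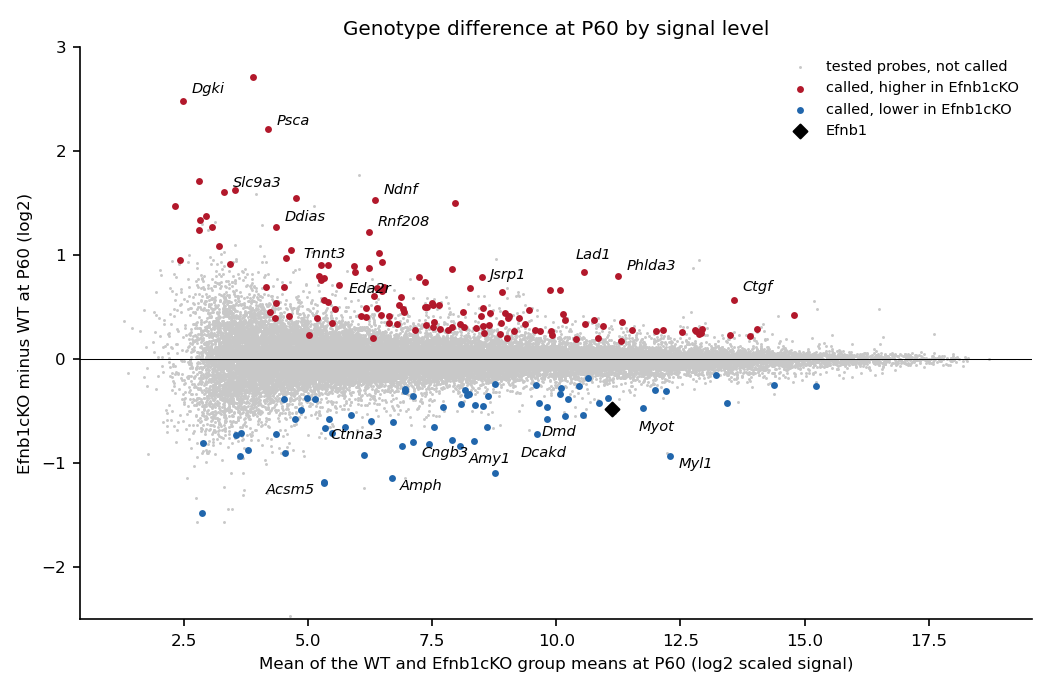
Difference between Efnb1cKO and WT at P60 (y axis, log2) against the mean of the 2 group means (x axis, log2 scaled signal), 1 point per probe. Probes past the adjusted threshold are red where higher and blue where lower in the knockout, grey points did not pass, defensin and Myh7 probes that passed are left out (197 of the other 199 are drawn), and the black diamond is Efnb1. Dgki and Psca are among the points far from 0 at low signal, where the plotted size is not well measured (Dgki was above background on no WT array), whereas Phlda3 (0.80) and Myl1 (-0.93) lie at high signal.

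Each gene value below rests on 60-base probes, so a part of the probes behind the best separated genes is shown, 30 bases each, 5′ to 3′ as the array files give them, with positions on build mm9. Phlda3 was read at chr1:137665642-137665701, plus strand, Amph at chr13:19242694-19242753, plus strand and Dmd at chrX:82449703-82449762, plus strand. The Ctnna3 probe spans chr10:64138650-64297370, plus strand, far more than its own 60 bases. The Tnnt3 pair lies at chr7:149698254-149698479, plus strand and chr7:149698467-149698526, plus strand, and the Aen pair at chr7:86053197-86053256, plus strand and chr7:86053207-86053266, plus strand. These last 2 pairs are shown because the probes of each overlap, and capitals mark bases that both probes of a pair share (13 bases for Tnnt3 and 50 for Aen, of which the printed part shows some). Overlapping probes are not independent measurements of a gene.
Phlda3 A_51_P329928 (first 30 bases): gtaagggttggccctttaccatttcatgct
Amph A_51_P423518 (first 30 bases): aacgaggtgatgtatgctgtatcagaaacc
Dmd A_55_P2811879 (first 30 bases): acctaatttcacaacttcaccacttgtctg
Ctnna3 A_66_P136095 (first 30 bases): gtcatgatgattcggacaccagaggaacta
Tnnt3 A_52_P622418 (last 30 bases): gaactctgggataccttGTACCAACTGGAG
Tnnt3 A_55_P2088375 (first 30 bases): GTACCAACTGGAGactgacaaattcgagtt
Aen A_55_P2141860 (first 30 bases): ttactgggagAAGTCAGCTTGCTCATAGTA
Aen A_55_P2145804 (first 30 bases): AAGTCAGCTTGCTCATAGTACCAGACCATC

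Among genes that rose, Phlda3 had the smallest adjusted p. Phlda3 encodes a p53-induced protein with a pleckstrin homology domain that restrains Akt. Its signal was 10.74, 10.88, 10.94, 10.78 and 10.86 on the WT arrays and 11.59 to 11.75 (median 11.63) on the knockout arrays, so every knockout array lay above every WT array by more than the spread of either group. The difference was 0.80 (SE 0.0517, adjusted p = 3.6e-09), or 1.75-fold, and within the slides it was 0.81, 0.75 and 0.84. Eda2r, a receptor of the tumour necrosis factor receptor family and also a p53 target, read 5.45, 5.67, 5.74, 5.17 and 5.62 in WT and 6.18 to 6.59 (median 6.32) in Efnb1cKO, again without overlap. It rose by 0.84 (SE 0.1, adjusted p = 4.9e-05). Aen, a p53-induced nuclease, was measured by 5 probes, of which 3 rose by 0.25, 0.32 and 0.44. Its remaining probes gave 0.25 (adjusted p = 0.083) and -0.08 (adjusted p = 0.85). The first of these is the printed probe that shares 50 bases with a called one: the 2 gave the same difference, 0.25, and lay on opposite sides of the threshold (adjusted p = 0.083 and 0.021). The call on the Aen probe of largest change was lost without any 1 of WT replicates 5 and 6 (adjusted p up to 0.059). The normexp value of Eda2r was 0.44. Ddias, which encodes an inhibitor of apoptosis induced by DNA damage, was well above background on 3 of 5 WT and all 6 knockout arrays. It read 3.40, 4.09, 3.85, 3.20 and 4.10 in WT and 4.82 to 5.12 (median 5.03) in Efnb1cKO and rose by 1.27 (SE 0.236, adjusted p = 0.009). Its normexp value was 0.31, and blocking on slide position ended its call (adjusted p = 0.062).

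Several named genes with large fitted rises had low signal in WT. The Dgki probe, for a diacylglycerol kinase that ends diacylglycerol signalling, gave a clear signal (well above background) on 0 of 5 WT arrays (0.96, 1.02, 1.13, 1.15 and 2.01) and on 5 of 6 knockout arrays, which read 3.52 to 3.96 (median 3.76). With the WT level known only as a bound, Dgki was at least 1.52-fold higher (measured means 1.25 ± 0.43 in WT and 3.73 ± 0.17 in Efnb1cKO, fitted difference 2.48, adjusted p = 1.1e-05). For that bound each WT array was given the lowest signal among its probes well above background, or the probe's own signal where higher. Background is judged spot by spot and other probes can fail it at higher signals, so the bound holds for this definition only. Testing required a probe to be well above background on at least 5 of 23 arrays, so the knockout arrays alone could carry Dgki through the filter. Its adjusted p also rests on WT values below background and is no independent support. Psca, a small surface protein held by a lipid anchor, read 3.04, 3.48, 3.56, 2.92 and 2.48 in WT and 4.65 to 5.96 (median 5.30) in Efnb1cKO, with 2 of 5 WT arrays above background. It rose by 2.21 (SE 0.254, adjusted p = 2.9e-05), and the lowest knockout array lay more than 1 unit above the highest WT array. Slc9a3, the sodium and proton exchanger known from kidney and gut epithelium, read 3.37, 4.50, 3.66, 3.74 and 4.63 in WT, 3 of 5 above background, and 4.78 to 6.21 (median 5.61) in Efnb1cKO. Its groups came within 0.15 of each other, and the difference was 1.55 (SE 0.271, adjusted p = 0.0049). Slc51a, a subunit of the transporter that exports bile acids from cells, rose on both of its probes, by 0.78 (adjusted p = 0.037) on the larger. That call was lost without any 1 of WT replicates 3, 4 and 5 and knockout replicates 1, 2, 3, 5 and 6 (adjusted p up to 0.12). The normexp values were 0.27 for Dgki, 0.57 for Psca, 0.46 for Slc9a3 and 0.30 for Slc51a, and with that correction Dgki was not called (adjusted p = 0.11). The authors' deposited values gave 0.90 for Psca and 0.70 for Slc9a3.

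The following genes that rose were well above background on all 11 arrays. Rnf208, for a RING finger protein, read 5.51, 5.49, 5.70, 5.40 and 5.99 in WT and 6.73 to 7.12 (median 6.78) in Efnb1cKO, a rise of 1.22 (SE 0.194, adjusted p = 0.0019). Knockout replicate 5 stood above the other knockout arrays at 7.12, and the lowest of them still exceeded the highest WT array. Shd, an adaptor with an SH2 domain, averaged 6.02 ± 0.36 in WT and 6.96 ± 0.12 in Efnb1cKO, and Rpp25, a subunit of the RNase P and RNase MRP enzymes that process RNA, 6.18 ± 0.23 in WT and 6.87 ± 0.10 in Efnb1cKO (adjusted p = 0.00015 and 0.00083). Both kept their groups apart. Lad1 encodes ladinin, a protein of anchoring filaments in basement membranes. Its brighter probe read 10.11, 10.12, 9.71, 10.08 and 10.60 in WT and 10.69 to 11.29 (median 10.95) in Efnb1cKO and rose by 0.84 (SE 0.135, adjusted p = 0.0021). The second rose by 0.79 (adjusted p = 0.017) with overlapping groups, and within the third slide, which has 1 WT array, the 2 probes differed by only 0.24 and 0.01. Lppr2 (Plppr2 in RefSeq), of the lipid phosphatase-related family, rose by 0.80 (SE 0.158, adjusted p = 0.016), and Ndnf, a secreted factor, rose on both probes, by 1.53 on the one with the larger change. The Lppr2 call was lost without WT replicate 3 (adjusted p = 0.06). The normexp values were 0.70 for Rnf208, 0.55 for Shd, 0.42 for Rpp25, 0.33 for Lppr2 and 0.91 for Ndnf.

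Genes of the sarcomere moved in both directions. Tnnt3, the troponin T of fast skeletal muscle, rose on all 3 of its probes, by 0.68, 0.97 and 1.05. The brightest read 5.93, 6.04, 6.40, 6.03 and 5.90 in WT and 6.42 to 7.15 (median 6.74) in Efnb1cKO, so the groups were separated only narrowly, and the difference was 0.68 (SE 0.125, adjusted p = 0.0083). Within the slides that probe differed by 0.53, 0.45 and 1.13. On the Tnnt3 probe with the difference of 1.05 the normexp value was 0.30, which was not called (adjusted p = 0.11). Myl1, the essential light chain of fast skeletal myosin, went the other way: it read 12.39, 12.92, 12.99, 12.85 and 12.65 in WT and 11.43 to 12.25 (median 11.80) in Efnb1cKO and fell on average by 0.93 on the log2 scale (SE 0.196, adjusted p = 0.026). The Myl1 call was lost without any 1 of WT replicates 3, 4 and 5 and knockout replicates 1, 2 and 3 (adjusted p up to 0.087), and its other 3 probes, from -0.91 to -0.64, were not called. Myot, which encodes the Z-disc protein myotilin, fell and averaged 11.97 ± 0.10 in WT and 11.51 ± 0.14 in Efnb1cKO (adjusted p = 0.027). The Myot call was lost without any 1 of WT replicates 3, 4, 5 and 6 and knockout replicates 2, 4, 5 and 6 (adjusted p up to 0.085).

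Over the list of genes of the skeletal and fetal sarcomere, 17 of 28 genes lay above 0 and 10 below it, with a median difference of 0.05, against a median of 0 over all genes. Tnnt3 and Myl1 were its called members by the brightest probe of each gene. Counted in that way, 0.692% of all 23133 gene names were called, 0.493% higher and 0.199% lower, and 2.26% had groups that did not overlap. In this list the groups did not overlap for 5 of the 28 genes, Tnnt3 and Myl1 among them. The lists below have 17 to 43 measured genes, so a single called member is no result about its list. Of the members that did not pass, Mylpf, the regulatory light chain of fast muscle, differed by 0.69 (adjusted p = 0.057), Casq1 by 0.49 (adjusted p = 0.12), Tnni2 by 0.41 (adjusted p = 0.27) and Mybpc2 by 0.32 (adjusted p = 0.13). These named members all lay above 0, whereas 10 genes of the list, Myl1 among them, lay below it. The summed signal of 9 tested skeletal muscle markers was 3900 to 4660 on WT arrays and 4270 to 5420 on knockout arrays, a difference of 0.19 on the log2 scale (exact permutation p = 0.0195, 0.197 after adjustment over the 14 marker lists). Of those 9 genes, 7 lay above 0, Tnnt3, itself among them, was called, and the part of skeletal muscle in the differences above was not tested. The myosin Myh4 and parvalbumin (Pvalb), which define fast skeletal fibres, differed by 0.02 and -0.01, and Myh1, Myh2 and Actn3 did not pass the signal filter. Jsrp1, a protein of the junctional sarcoplasmic reticulum that binds the voltage-gated calcium channel of skeletal muscle, rose on both of its probes. The brighter read 8.02, 8.13, 8.25, 8.11 and 7.99 in WT and 8.79 to 9.14 (median 8.85) in Efnb1cKO, a difference of 0.79 (SE 0.131, adjusted p = 0.0029). Its groups lay more than 0.5 apart, and the difference within the slides was 0.76, 0.80 and 0.86. Among genes of the cardiac sarcomere, 15 of 25 genes lay above 0 and 9 below it, with a median difference of 0.01, and Myot was the called member.

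Amph showed one of the best separated falls. It encodes amphiphysin, a protein whose BAR domain bends membranes during endocytosis and a relative of Bin1, which shapes T-tubules. Its signal was 7.06, 7.28, 7.07, 7.44 and 7.45 on WT arrays and 5.96 to 6.22 (median 6.12) on knockout arrays, without overlap, and the difference was -1.14 (SE 0.0919, adjusted p = 1.3e-07). Within the slides it was -1.14, -1.08 and -1.29, and its normexp value was -0.69. Bin1 was measured by 2 probes that differed by -0.09 (adjusted p = 0.74) and -0.17 (adjusted p = 0.89). Of the T-tubule and dyad, 7 of 22 genes lay above 0 and 14 below it, with a median difference of -0.06, and Amph was the called member. The ranges of the groups did not overlap for 4 of these 22 genes, Amph included, and for 2.26% of all gene names: Cmya5, Cacna1c and Tmem38b gave -0.17 (adjusted p = 0.096), -0.16 (adjusted p = 0.57) and -0.26 (adjusted p = 0.51).

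Dmd, the gene of dystrophin, which links the actin cytoskeleton to the membrane complex of the lateral surface, fell on 2 of its 8 probes. The probe with the brightest signal read 10.72, 10.71, 10.87, 10.85 and 10.92 in WT and 10.15 to 10.35 (median 10.29) in Efnb1cKO and differed by -0.54 (SE 0.0533, adjusted p = 3.1e-06). A second, whose groups overlapped, differed by -0.42 (adjusted p = 0.0052). The other 6 probes, spread over the gene, gave differences from -0.40 to -0.12, none above 0 and none past the threshold. For the dystrophin complex, costamere and basement membrane, 12 of 41 genes lay above 0 and 26 below it, with a median difference of -0.02, and Dmd was the called member. Dag1 and Lama2, the dystroglycan and laminin genes that continue this link outside the cell, differed by -0.11 (adjusted p = 0.87) and -0.13 (adjusted p = 0.53).

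Ctnna3 encodes alpha-T-catenin, which ties cadherins to actin at the intercalated disc. The printed probe read 7.17, 7.08, 6.95, 7.03 and 6.89 in WT and 6.29 to 6.62 (median 6.40) in Efnb1cKO and differed by -0.61 (SE 0.0693, adjusted p = 2.5e-05), with -0.59, -0.64 and -0.54 within the slides. In the order of their mm9 coordinates, the 4 Ctnna3 probes gave -0.09, -0.26, -0.61 and -0.62. The third of these is the called one, and the last, which was above background on 3 of 5 WT arrays and 1 of 6 knockout arrays, had an adjusted p of 0.46. The normexp value of the called probe was -0.39. For the intercalated disc, 13 of 24 genes lay above 0 and 9 below it, with a median difference of 0.01, and Ctnna3 was the called member. Gja1, the connexin 43 gene, and Cdh2, the N-cadherin gene, differed by 0.10 (adjusted p = 0.85) and -0.08 (adjusted p = 0.79).

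**Figure D2:**
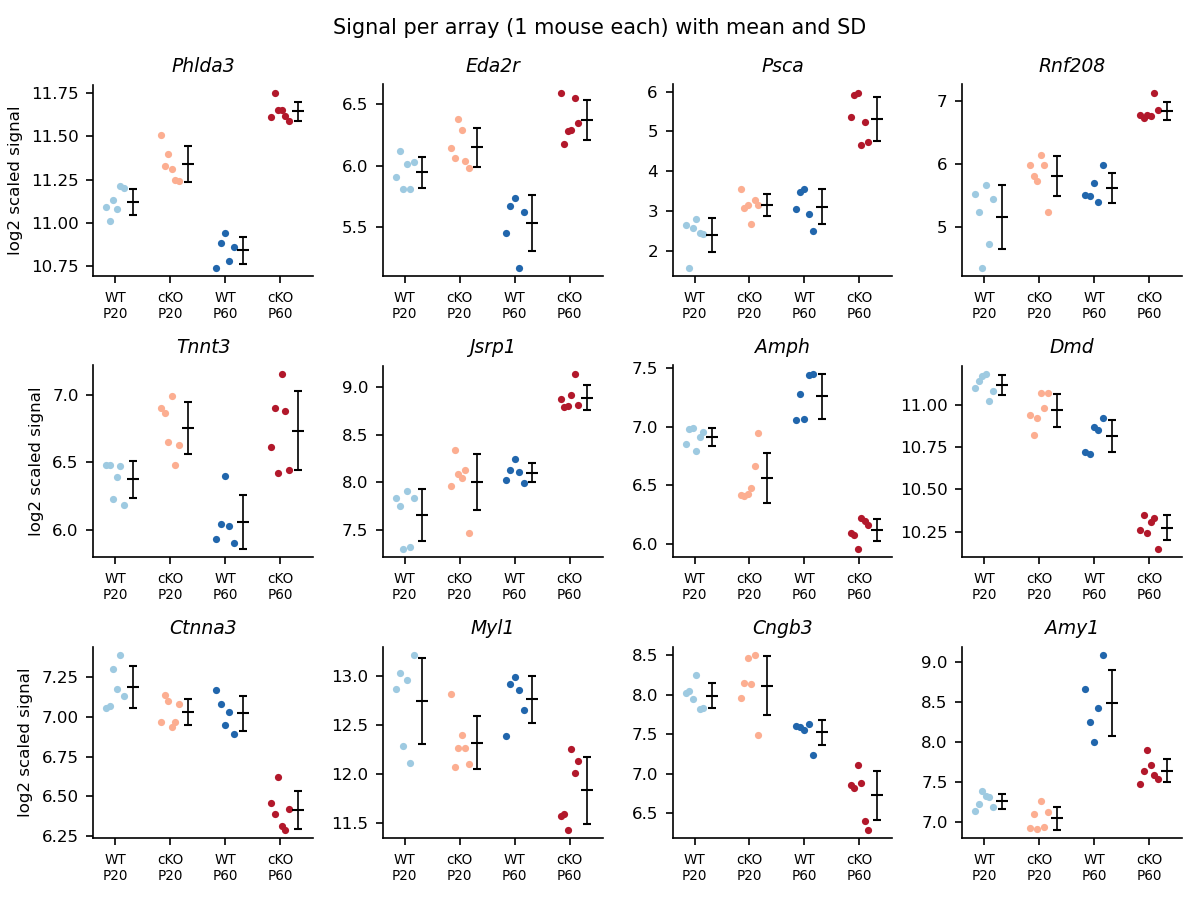
Log2 scaled signal of 12 genes, 1 probe each, on every array of the 4 groups (6, 6, 5 and 6 arrays), with the group mean and SD beside the points. The 6 genes from Phlda3 to Jsrp1 were higher and the 6 from Amph to Amy1 lower in the knockout at P60, and the P60 groups do not overlap on any of these probes. Each panel has its own y axis.

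Other falls covered enzymes, channels and signalling proteins. Acsm5, of the medium-chain acyl-CoA synthetase family, read 5.91, 5.84, 5.57, 5.86 and 6.37 in WT and 4.48 to 5.21 (median 4.64) in Efnb1cKO, a difference of -1.18 (SE 0.191, adjusted p = 0.0024) with the groups apart. A second and brighter Acsm5 probe differed by -0.55 (adjusted p = 0.1). Amy1 and Amy2a5, the salivary and pancreatic amylase genes, differed by -0.84 and -0.71. They are members of a family of near-identical copies, so their probes may not tell them apart. Amy1 averaged 8.49 ± 0.42 in WT and 7.64 ± 0.15 in Efnb1cKO, without overlap, and its call was lost with only the P60 arrays in the fit (adjusted p = 0.062). The Amy2a5 call was lost without any 1 of WT replicates 1, 5 and 6 and knockout replicates 1, 3, 4, 5 and 6 (adjusted p up to 0.095). Cngb3, a subunit of the cyclic nucleotide-gated channel of cone photoreceptors, read 7.60, 7.59, 7.55, 7.63 and 7.24 in WT and 6.29 to 7.11 (median 6.84) in Efnb1cKO and differed by -0.80 (SE 0.158, adjusted p = 0.016). Dcakd, for a protein with a dephospho-CoA kinase domain, averaged 9.98 ± 0.22 in WT and 9.26 ± 0.22 in Efnb1cKO (adjusted p = 0.00052). Macrod2, an ADP-ribose hydrolase encoded by one of the longest mouse genes, averaged 4.71 ± 0.21 in WT and 3.99 ± 0.15 in Efnb1cKO on the called one of its 5 probes (adjusted p = 0.015). The other 4 gave -0.35 to -0.14. Ptprn2, a phosphatase-like protein of secretory granules, fell on 2 of 3 probes, with -0.90 (adjusted p = 0.026) on the larger. That call was lost without any 1 of WT replicates 3 and 5 and knockout replicates 1, 5 and 6 (adjusted p up to 0.1), that of Cngb3 without any 1 of WT replicates 3 and 5 (adjusted p up to 0.058), and that of Macrod2 without WT replicate 5 (adjusted p = 0.066). The normexp values were -0.47 for Acsm5, -0.30 for Amy2a5, -0.17 for Macrod2 and -0.24 for Ptprn2, and those of Macrod2 and Ptprn2 were not called.

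Single probes of 3 further genes were not well above background on any knockout array, so their fold is a bound, and in each gene another probe was not called. The Ppp1r14c probe, for an inhibitor of protein phosphatase 1, was at least 1.79-fold lower (measured means 4.09 ± 0.44 in WT and 3.16 ± 0.27 in Efnb1cKO, adjusted p = 0.017). A second Ppp1r14c probe, above background on 3 of 6 knockout arrays and with overlapping groups, differed by -0.87 (adjusted p = 0.045), and the third by -0.04 (adjusted p = 0.93). A probe of Ap3m2, a subunit of the AP-3 vesicle coat, was at least 1.64-fold lower (3.92 ± 0.28 in WT and 3.19 ± 0.27 in Efnb1cKO, adjusted p = 0.017), and one of the transcript Gm9801 at least 1.26-fold lower (3.30 ± 0.15 in WT and 2.49 ± 0.45 in Efnb1cKO, adjusted p = 0.024). The other 2 Ap3m2 probes differed by 0.00 and -0.05, and the other Gm9801 probe by 0.14. Of all called probes beyond the defensins and Myh7, 7 were below background on every knockout array and 13 on every WT array, while 174 were above it on all 11. The Ppp1r14c call was lost without any 1 of WT replicates 3 and 4 (adjusted p up to 0.064), that of Ap3m2 without any 1 of WT replicates 3 and 6 (adjusted p up to 0.072), and that of Gm9801 without any 1 of WT replicates 3, 4 and 5 and knockout replicates 2 and 4 (adjusted p up to 0.075). The normexp values were -0.16 for Ppp1r14c, -0.12 for Ap3m2 and -0.09 for Gm9801, and none of these was called. The transcripts Gm10635 and Gm13715 averaged 7.31 ± 0.22 in WT and 6.47 ± 0.33 in Efnb1cKO and 8.30 ± 0.28 in WT and 7.52 ± 0.21 in Efnb1cKO. The Gm13715 call was lost without any 1 of WT replicates 3, 4 and 5 and knockout replicates 1, 2, 3 and 5 (adjusted p up to 0.12), and that of Gm10635 with only the P60 arrays in the fit (adjusted p = 0.053). The summed signal of 10 neuron and Schwann cell markers was 4280 to 4950 on WT arrays and 3790 to 4440 on knockout arrays, a difference of -0.15 on the log2 scale (exact permutation p = 0.0281, 0.197 after adjustment over the 14 marker lists). Of these genes 3 lay above 0 and 7 below it, and none was called. The part of those cells in the falls of genes known from nerve cells, such as Amph and Ptprn2, was not tested.

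Where a gene had several probes, they seldom all passed. Of 135 of the named genes with a called probe, 76 had more than 1 tested probe. In 19 of those at least 2 probes passed, 13 higher and 6 lower, in 11 every tested probe passed, and in 57 only 1 did. No gene had called probes in both directions. The 19 include several with small and even differences. Cox19, a copper chaperone for cytochrome oxidase assembly, rose by 0.27 and 0.28 on its 2 probes. Ckb, the brain form of creatine kinase, rose by 0.38 and 0.39, Slc38a1, a glutamine transporter, by 0.36 and 0.38 on 2 of 4 probes, and Atp11a, a phospholipid flippase, by 0.28 and 0.29 on 2 of 4. Nt5c, a cytosolic nucleotidase, rose on 2 of 3 probes, Ccdc136 on 2 of 4, with the others at -0.07 and 0.23, and Lrrc51 on both of its probes. Tesc, a calcium-binding partner of the sodium and proton exchanger, fell by 0.25 and 0.26 on the log2 scale, and Pde7a, a phosphodiesterase that breaks down cyclic AMP, by 0.42 and 0.60. The Nt5c call was lost with the G and C correction (adjusted p = 0.12). Single calls among these were lost for Lrrc51 without any 1 of WT replicates 1 and 5 and knockout replicates 2 and 5 (adjusted p up to 0.069), for Slc38a1 without WT replicate 3 (adjusted p = 0.06), and for Tesc without WT replicate 5 (adjusted p = 0.061). With slide as a block 1 probe each of Ckb, Atp11a and Pde7a lost its call (adjusted p = 0.058, 0.065 and 0.053). The normexp value of the larger Pde7a difference was -0.34, and that of Lrrc51 was 0.23 and not called.

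The lists of heart metabolism, calcium handling and matrix had no called member by the brightest probe of each gene, and with 0.692% of all gene names called, a list of this size need not have one. Acsm5, a member of the fatty acid list, was called lower on its dimmer probe, as given above. Over all 23133 gene names 11110 lay above and 11034 below 0, with a median of 0. In fatty acid and ketone metabolism, 9 of 43 genes lay above 0 and 33 below it, with a median difference of -0.06. Ucp2 and Ucp3, mitochondrial uncoupling proteins, differed by 0.61 (adjusted p = 0.088) and 0.41 (adjusted p = 0.48), and Ppargc1a, a coactivator of mitochondrial genes, by -0.29 (adjusted p = 0.55). The groups did not overlap for 3 of the 43 genes, Ucp2, Ucp3 and Mlycd (-0.17 (adjusted p = 0.54)), against 2.26% of all gene names. For mitochondria, 3 of 40 genes lay above 0 and 31 below it, with a median difference of -0.03: the member farthest from 0 was Uqcrc2, a subunit of complex III, at -0.10 (adjusted p = 0.48). In glucose metabolism, 9 of 25 genes lay above 0 and 12 below it, with a median difference of 0.00. In calcium handling and ion channels, 13 of 29 genes lay above 0 and 15 below it, with a median difference of -0.03, and in the extracellular matrix 13 of 34 genes lay above 0 and 19 below it, with a median difference of -0.01. Of these last 4 lists, 1 gene had groups apart, the potassium channel gene Kcnj3 at -0.36 (adjusted p = 0.23).

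Under hypertrophy and stress, 15 of 23 genes lay above 0 and 8 below it, with a median difference of 0.06, and Ctgf, a matrix protein induced by stretch and by transforming growth factor beta, was the called member. Ctgf read 13.45, 13.27, 12.95, 13.58 and 13.23 in WT and 13.54 to 14.27 (median 13.84) in Efnb1cKO, with overlapping groups, and differed by 0.57 (SE 0.128, adjusted p = 0.043). The call was lost without any 1 of WT replicates 1, 3, 4 and 6 and knockout replicates 2, 3 and 4 (adjusted p up to 0.12), and also with slide as a block (adjusted p = 0.053) and with slide position as a block. Gdf15, Ankrd1, Nppa and Nppb, which are induced in strained hearts, differed by 0.68 (adjusted p = 0.052), 0.48 (adjusted p = 0.38), 0.48 (adjusted p = 0.71) and 0.23 (adjusted p = 0.89). The atrial marker sum, which includes Nppa, ranged from 78200 to 230000 on WT arrays and from 97000 to 169000 on knockout arrays. Its difference was 0.35 on the log2 scale (exact permutation p = 0.255, 0.666 after adjustment over the 14 marker lists). Of its 9 measured genes 8 lay above 0 and 1 below it, and none was called. Of the cell cycle, 17 of 24 genes lay above 0 and 7 below it, with a median difference of 0.03. Its called member was Ccnd2, the gene of cyclin D2, with 0.29 (adjusted p = 0.029) on the brightest of 3 probes and 0.23 and 0.30 on the others, which did not pass. That call was lost without any 1 of WT replicates 1, 3, 4 and 5 and knockout replicates 3 and 5 (adjusted p up to 0.11).

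Immediate early genes lay above 0 almost throughout without a call: 19 of 21 genes lay above 0 and 2 below it, with a median difference of 0.20. Fos differed by 0.96 (adjusted p = 0.47), Ier3 by 0.45 (adjusted p = 0.43), Nr4a1 by 0.45 (adjusted p = 0.69) and Egr1 by 0.29 (adjusted p = 0.79). These genes respond together within minutes, so their signs are not independent, and the median at P20 was -0.07. Of the circadian clock, 11 of 17 genes lay above 0 and 6 below it, with a median difference of 0.25, and none passed. Dbp, an output of the clock, read 0.95 (adjusted p = 0.77) with SDs of 1.40 in WT and 1.11 in Efnb1cKO, and Arntl, which drives it, -0.53 (adjusted p = 0.89). The hour at which the mice were killed is not given in the sources used here, so hour and genotype cannot be told apart for these genes. Among 18 Eph receptors and ephrins none passed. The largest difference after Efnb1 was that of Efnb3, at -0.18 (adjusted p = 0.71), and Efnb2 differed by 0.05 (adjusted p = 0.94).

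**Figure D3:**
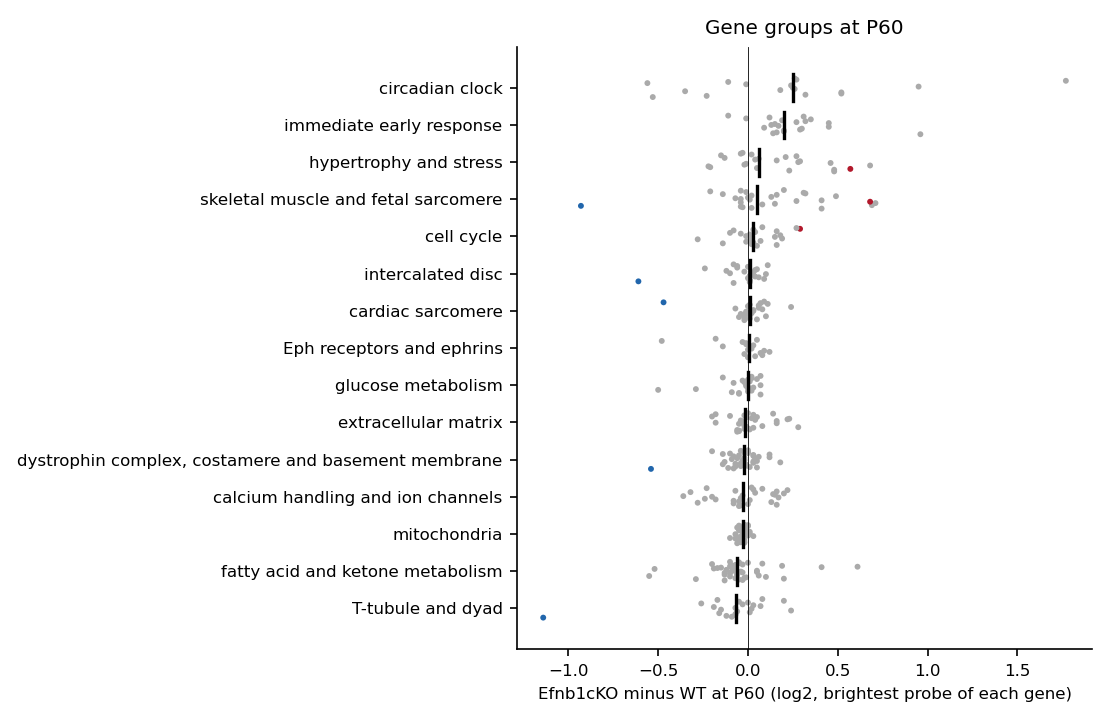
Difference between Efnb1cKO and WT at P60 (x axis, log2) for each gene of 15 gene groups (y axis), by the brightest probe. Red and blue points passed the threshold, grey points did not, and the black bar is the group's median, from -0.06 for the T-tubule and for fatty acid genes to 0.25 for clock genes.

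Called genes sometimes lay side by side. On the mm9 coordinates of the probes, 175 called genes and transcripts have a position, and 26 of them (14.9%) had another called one within 0.1 Mb, against 3.21% of all tested genes and transcripts. Within 2 Mb the shares were 38.3% and 32.3%. The closer distance gave 13 pairs, 11 in the same direction. Clones, sequence tags and window transcripts were counted as entries of their own, so some pairs may be 1 transcript under 2 names. That was not tested, and it can raise the share within 0.1 Mb and the count of pairs in the same direction. On chromosome 1, the probes of Lad1 and Phlda3 lie 62 kb apart and both genes rose. On chromosome 7, Tnnt3 lies 22 kb from Lsp1, which rose by 0.24, and Aen probes overlap one named for an expressed sequence tag, which rose by 0.24. On chromosome 9, Rpp25 lies 63 kb from Scamp5 (0.48) and Lppr2 39 kb from Rab3d (0.39), all higher. On chromosome 11, Dcakd lies 6 kb from a cDNA clone, and both fell, while Spata20 and Mycbpap, 22 kb apart, both rose. The other pairs that moved together were Pde7a with Armc1 on chromosome 3, Dgki with a window transcript on chromosome 6, and on chromosome 13 Trim38 with an Ensembl transcript and E030046B03Rik with 2010001K21Rik. Dmd and the transcript 1600014K23Rik, 66 kb apart on the X chromosome, moved in opposite directions on their called probes. So did Nup205 and 1810058I24Rik on chromosome 6, but the other 2 Nup205 probes, which were not called, gave -0.27 and -0.14. Calls on these genes were lost for Lsp1 without any 1 of WT replicates 3, 4, 5 and 6 and knockout replicates 1, 2, 3 and 6 (adjusted p up to 0.11), for Scamp5 without WT replicate 5 (adjusted p = 0.068), for Rab3d without any 1 of WT replicates 1, 3 and 5 (adjusted p up to 0.053), and for Trim38 without any 1 of WT replicates 1, 3, 4 and 5 and knockout replicates 2, 3, 4 and 5 (adjusted p up to 0.11). The E030046B03Rik call was lost without any 1 of WT replicates 3, 4 and 6 and knockout replicates 1, 2, 3 and 4 (adjusted p up to 0.11), and that of the expressed sequence tag without any 1 of WT replicates 3, 4, 5 and 6 and knockout replicates 1, 2, 3 and 4 (adjusted p up to 0.077). Armc1 was called on 1 of 3 probes, with -0.09 and -0.08 on the others. With normexp, Armc1, Spata20, Trim38, Nup205, 1600014K23Rik and the Ensembl transcript were not called. Spata20 lost its call when any 1 of the 11 arrays was left out. Strand was not compared.

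Genes that fell were longer than genes that rose. By the span of the gene in RefSeq (GRCm38.p6), the median length behind called probes of named genes was 15.3 kb for 102 higher probes and 55.5 kb for 55 lower ones, against 27.6 kb for all tested probes of named genes. Genes over 100 kb made up 9.8% of the higher, 32.7% of the lower and 16.9% of all, and Dmd, Ctnna3, Amph, Ptprn2 and Macrod2 are among those that fell. Of 3575 tested probes of genes under 5 kb, 23 were called higher and 0 lower. Over all 29214 tested probes with a known gene length these counts were 112 and 59, with called defensin and Myh7 probes left out. Over all tested probes the median difference went from 0.023 below 5 kb to -0.037 between 160 and 320 kb, a shift far smaller than the called differences, and at P20 from 0.02 to -0.008. A length score per array, the median deviation of genes over 100 kb minus that of genes under 10 kb, was -0.0255 ± 0.0295 (SD, n = 6) in Efnb1cKO and 0.0298 ± 0.039 (SD, n = 5) in WT. The difference of -0.0553 gave an exact two-sided permutation p of 0.0325, or 0.065 after adjustment over the 2 scores computed.

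The base content of the probes differed along the same line. The median share of G and C was 45% for the higher and 39.2% for the lower probes of named genes, against 43.3% for all. The median difference at P60 went from -0.027 at 35 to 40% to 0.064 at 60% and over. The matching score per array, probes of at least 50% minus those of at most 35% G and C, differed by 0.072 between the genotypes (exact two-sided permutation p = 0.255). Its 3 highest values, 0.149, 0.13 and 0.116, came from 2 knockout arrays and 1 WT array that all lay in the second row of their slides. Of the 11 arrays, 5 lay in that row. After a correction for G and C within each array, chosen after the data had been seen, the median lengths were 16.4 and 55.5 kb for 104 higher and 49 lower probes. RNA integrity values are not given in the sources used here, and their part in the length difference was not tested.

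**Figure D4:**
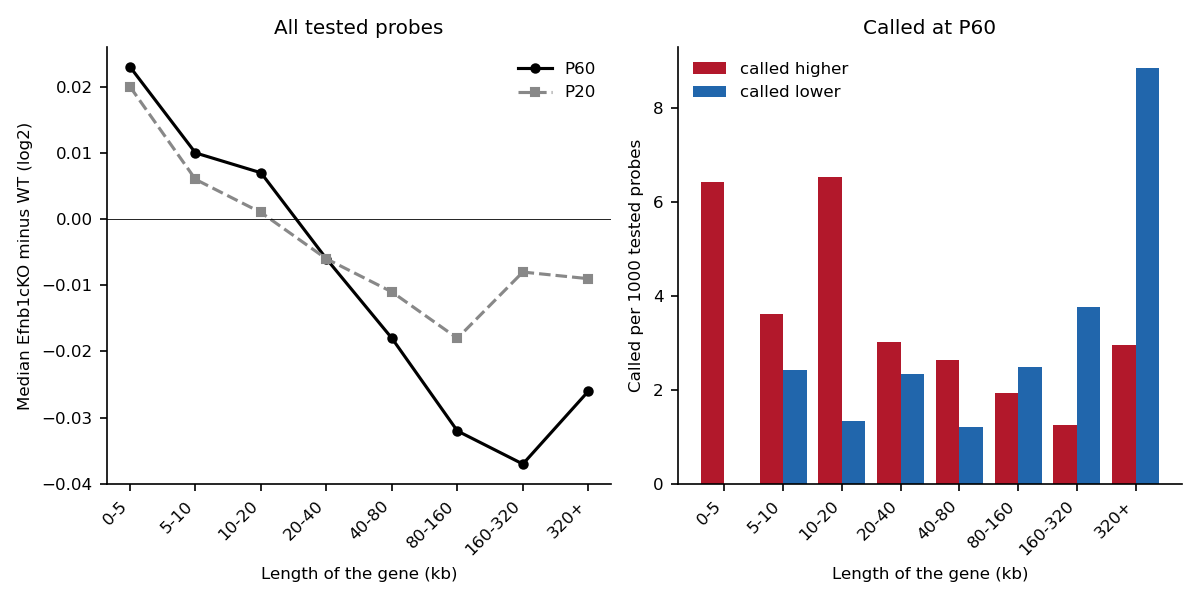
Left, median difference between Efnb1cKO and WT (y axis, log2) over all tested probes in bins of gene length (x axis, kb), at P60 (black) and P20 (grey). Right, probes called higher (red) and lower (blue) at P60 in the same bins, scaled to equal numbers of tested probes. The 3575 probes of genes under 5 kb include none called lower. Called falls are most frequent above 320 kb, with 9 of 1016 probes, against 59 of all 29214 probes with a known gene length.

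The same probes differed less between the genotypes 20 days after birth. Of the 199, 180 had the same sign at P20 and 198 were larger at P60. The P60 differences are those by which the probes were called, so their larger size at P60 is a description and not a test. The median of the higher probes was 0.46 at P60 and 0.16 at P20, and that of the lower probes -0.54 and -0.14. At P20, 0.0252% of all tested probes were called, and 4 of the 199 were among them: both Ndnf probes, 1810058I24Rik (-0.48 at P20 and -0.42 at P60) and a window transcript of chromosome 2.

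The test of whether the genotype difference itself changed between the ages called 0.0392% of all tested probes, 14 in all, of which 4 are among the 199. Phlda3 and Amph are the ones described here. Phlda3 differed by 0.22 at P20 (adjusted p = 0.24), with means of 11.12 ± 0.07 in WT and 11.34 ± 0.10 in Efnb1cKO (SD, n = 6 each). At P60 these were 10.84 and 11.65, so the WT mean was lower and the knockout mean higher than at P20, and the difference of differences was 0.58 (SE 0.0715, adjusted p = 0.00028). Amph differed by -0.35 at P20, with 6.91 ± 0.08 in WT and 6.56 ± 0.21 in Efnb1cKO. Its WT mean was higher and its knockout mean lower at P60, with a difference of differences of -0.79 (SE 0.127, adjusted p = 0.011). For Dmd and Ctnna3 the same value was -0.40 (adjusted p = 0.057) and -0.46 (adjusted p = 0.16), which did not pass.

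**Figure D5:**
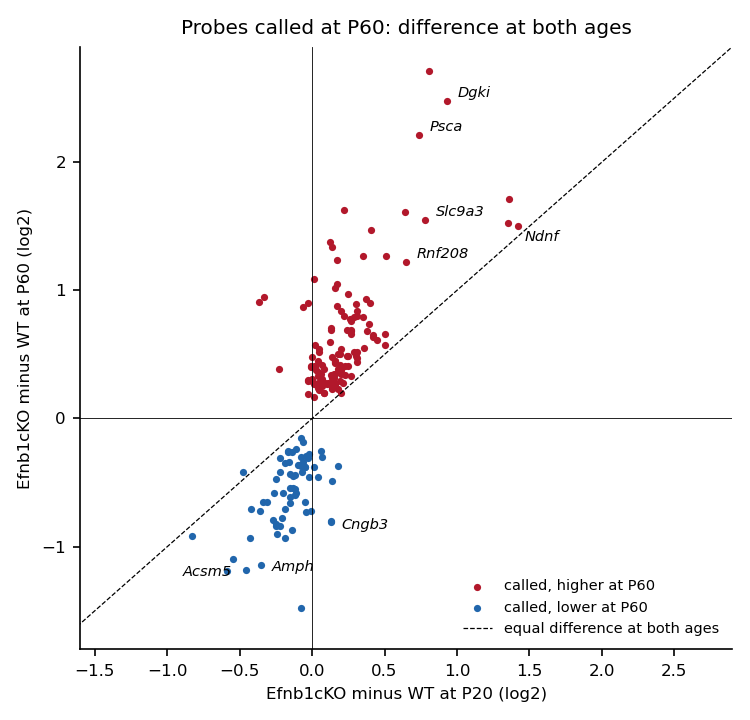
Difference between Efnb1cKO and WT at P60 (y axis, log2) against that at P20 (x axis, log2) for 197 of the 199 probes called at P60 beyond the defensins and Myh7. Red probes were higher and blue probes lower at P60, and the dashed line marks equal differences at both ages, near which the Ndnf probes lie. The points were chosen by the values on the y axis.

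With slide as a block, 149 of the 199 probes were still called, Phlda3, Amph, Dmd, Ctnna3, Eda2r, Psca and Jsrp1 among them. The call was lost with that block for Gm13715, Amy2a5, Trim38, E030046B03Rik, Ctgf, Spata20, Lsp1 and the expressed sequence tag, and on 1 probe each of Ckb, Atp11a, Pde7a, Ppp1r14c and Ptprn2. For 1 probe followed per gene, slide position as a block ended the calls of Ddias, Slc51a, Myl1, Ppp1r14c, Ptprn2, Cngb3, Gm13715, Ap3m2, Amy2a5, Trim38, E030046B03Rik, Ctgf, Spata20, Lrrc51, Rab3d, Slc38a1, Ccnd2 and Tesc. With only the P60 arrays in the fit those of Slc51a, Ppp1r14c, Ptprn2, Amy1, Gm10635, Gm9801, Ap3m2, Amy2a5, Trim38, Ctgf, Rab3d, Slc38a1, Ccnd2, Tesc and Lsp1 were lost. The authors' deposited values gave no call for Ppp1r14c, Ptprn2, Gm9801, Ap3m2, Macrod2, Trim38, Spata20 and Ccnd2. Without a signal filter no call remained for Slc51a, Gm13715, Amy2a5, Trim38, E030046B03Rik, Ctgf, Spata20, Myot, Ccnd2, Lsp1 and the expressed sequence tag, and with scaling to the median none for Slc51a, Ctgf, Spata20, Myot, Slc38a1, Tesc, Lsp1 and the expressed sequence tag. The correction for probe G and C, chosen after the data had been seen, ended the calls of Slc51a, Ctgf, Spata20, Nt5c and Lsp1. Quantile normalization ended those of Spata20 and Ccnd2, and a variance trend with robust prior those of Gm9801 and Spata20. Without WT replicate 3 or without WT replicate 5, the total of called probes was 131 in each case instead of 214.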

How the data were processed

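Agilent 1-colour arrays were measured on left ventricles of 23 male mice. The deposited scanner files hold spot intensities that Feature Extraction 10.10.1.1, named in the submitters' processing notes, had already background-corrected, per the file headers. The authors also deposited a table of log2 values whose columns share a median of 7.87; its normalization is not given in the sources used here, and it served as an alternative (r = 0.876 with the scanner values for the P60 differences over 34366 probes).

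Control spots and outlier flags were left out, spots of a probe averaged, and log2 intensity reduced by each array's 75th percentile (435.4 to 611.8 intensity units), with the mean of these restored. Probes well above background on at least 5 of 23 arrays were tested, 35719 of 56605. A group of 5 or 6 arrays could alone carry a probe through this filter. At P60, 58.1 to 61.4% of probes were above background on an array, and the number of arrays limits the precision. One limma fit (3.58.1, R 4.3.3) of 4 group means, with 19 residual degrees of freedom, gave two-sided tests, and adjusted p-values are Benjamini-Hochberg over all tested probes, called below 0.05. The tests weigh each difference against the spread between mice within groups. That spread was estimated over all 23 arrays, P20 included, with information shared across probes. Single values were compared by exact permutation over arrays. Only the fit was tested on simulated data, with independent noise for each probe. Background correction, scaling, the signal filter and slide effects were not simulated.

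Named genes are the 15 largest rises and 15 largest falls with groups apart, genes with several called probes, called list members, called genes with called neighbours within 2 Mb, and Efnb1; pairs within 0.1 Mb were described. A gene that the rule selects is not reported here. Members and lists were chosen with earlier results of these data known. Names and gene lengths were matched to RefSeq for 15732 of 16097 genes (97.7%), and probe positions are mm9, per the file headers. Alternatives covered background correction, scaling, signal filter, slide, place on the slide, replicate number, array weights, variance trend, probe choice, the authors' table and leaving out each array.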

Additional observations from a re-analysis of the deposited data

Results flagged for a closer look

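In 7 of 120 groups checked, 1 array stood apart from the rest of its group by Dixon's rule. Its limits are meant to flag about 1 in 20 groups of normally distributed values, a rate that was not checked here. In WT, Dgki read 2.01 in replicate 6 against 0.96 to 1.15 in the others, Gm9801 read 3.57 in replicate 4 against 3.19 to 3.28, and Cngb3 read 7.24 in replicate 6 against 7.55 to 7.63. In the knockout, Rnf208 read 7.12 in replicate 5 against 6.73 to 6.86, and Ppp1r14c read 2.63 in replicate 4 against 3.13 to 3.36. Dcakd read 8.85 in knockout replicate 3 against 9.27 to 9.48, and a Cox19 probe read 12.79 in replicate 6 against 12.93 to 13.01. These are log2 scaled signals, and the 7 values come from 6 different arrays.

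The genotype difference of Phlda3 was larger at P60 than at P20 by 0.58, and that of Amph was lower by a further -0.79, both by the interaction test in limma.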

How the results depend on the processing

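The 214 called probes at P60 became 509 with array weights (315 higher, 194 lower, all 214 among them). Under the other settings the count ran from 155 without a signal filter to 274 with a variance trend and robust prior; of the 214, 119 were among the 185 called with only the P60 arrays in the fit and 139 among the 178 with place on the slide as a block. Leaving out 1 array gave 131 to 214. The interaction count of 14 became 9 with normexp and 5 with probes above background on all 23 arrays, and ran from 13 to 17 with 1 array left out. The causes were not tested. Scaling to the 75th percentile of tested probes (251) and a G+C correction (209) were chosen after seeing the data. With the replicate number as a block, 190 probes were called, and Efnb1 gave -0.46 (limma adjusted p = 0.12). The calls of Lppr2, Myl1, Ppp1r14c, Gm13715, Trim38, E030046B03Rik, Ctgf, Spata20, Myot, Lrrc51 and Slc38a1 were lost with that block. Same-numbered arrays did not all deviate together (correlations -0.16 to 0.27), so the numbers were not taken as pairs. Efnb1 stayed between -0.52 and -0.46 with 1 array left out (exact permutation p at most 0.00794). Of 60 genes followed, all 60 kept their direction under every setting run, 25 kept their call, and 35 lost it in at least 1. The difference changed by more than 1.5 times for 34 of the 60 with normexp and for 21 with the authors' values, and under no other setting that kept all arrays of the comparison.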

Other observations

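Phlda3, Eda2r and Aen are textbook targets of the transcription factor p53, so the other well-known targets were read as well. The list of 23 genes was written after these values had been seen, so it has no test. All 23 genes were measured, by 41 probes, and 4 of them had a called probe, 3 of which are the genes that prompted the list. Over all named genes tested, defensins and Myh7 aside, 0.846% had a called probe. By the brightest probe of each, 18 lay above 0 and 4 below it, with a median difference of 0.11 at P60 and 0.06 at P20, while over all 23133 gene names 11110 lay above and 11034 below 0. The fourth called gene was Ppm1d, a phosphatase that damps the p53 response, with 0.39 (adjusted p = 0.049 in limma) on the dimmest of its 3 probes. Its brighter probes gave -0.06 and 0.06. Mdm2, the ubiquitin ligase that degrades p53, differed by 0.15 (adjusted p = 0.18) and 0.20 (adjusted p = 0.34) on its 2 probes, and Trp53inp1 by 0.37 (adjusted p = 0.13). Cdkn1a, the cell cycle inhibitor p21, differed by 0.16 with SDs of 1.01 in WT and 0.88 in Efnb1cKO, so a difference of the size seen for Phlda3 lies within its spread. Bax, Ccng1 and Zmat3 differed by 0.00, 0.09 and 0.07.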
